A study of Mus musculus with 4 samples.

Results

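In all, 10 chemokine genes of MC3T3-E1 osteoblast-lineage cells were followed over 4 arrays. They are Ccl2, Ccl5, Ccl7, Cxcl1, Cxcl5, Cxcl10, Cxcl12, Cxcl14, Cxcl16 and Cx3cl1. All probe sets whose platform gene symbol was one of these names were taken, which gave 19 of the 45101 probe sets on the array and 10 of the 18193 genes with a probe set of their own. MC3T3-E1 is an established preosteoblast line from the calvaria of newborn C57BL/6 mice, with a fibroblast-like shape. All 4 groups grew in MEM α with 10% fetal bovine serum. The normal medium groups had nothing further and were harvested at day 3 or day 6. The osteogenic medium groups were given 150 µM of ascorbic acid 2-phosphate and 10 mM of the phosphate donor beta-glycerophosphate as well, for the same 3 or 6 days. Each group was 1 array, so no comparison of a single pair of arrays has a replicate error or a test, and the line has no other cell types of bone around it.

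Chemokines are small secreted proteins that guide cells along a gradient through G protein-coupled receptors. The CXC chemokines with an ELR motif, such as Cxcl1 and Cxcl5, act on Cxcr2 and draw neutrophils, while Ccl2 and Ccl7 act on Ccr2 and draw monocytes, from which osteoclasts can form. Cxcl12 is made constantly by marrow stromal cells and osteoblasts and holds haematopoietic cells in the marrow through Cxcr4. Many inflammatory chemokine genes are switched on by NF-kB, and Cxcl10 also by interferon signals.

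On these arrays 7 of the 10 chemokine genes gave a signal above the floor on at least 1 array, and Cxcl5, Cxcl10 and Cxcl14 did not on any. Over all genes, 12503 of 18193 did, a share close to that of the members. The floor was a scaled signal of 57.8, the median of all probe sets, below which a value was not read as a level. At day 3 Ccl5 was below the floor in osteogenic medium, which left only a bound of at least 1.50-fold lower, and the other 6 differed by less than 2-fold between media. At day 6 Cxcl1 and Ccl7 were 3.91-fold and 2.20-fold higher in osteogenic medium, Ccl5 was 1.76-fold lower and Cxcl16 was 1.51-fold lower. Ccl2, Cx3cl1 and the brightest probe set of Cxcl12 differed by 0.19 or less in log2 at that day.

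**Figure D1:**
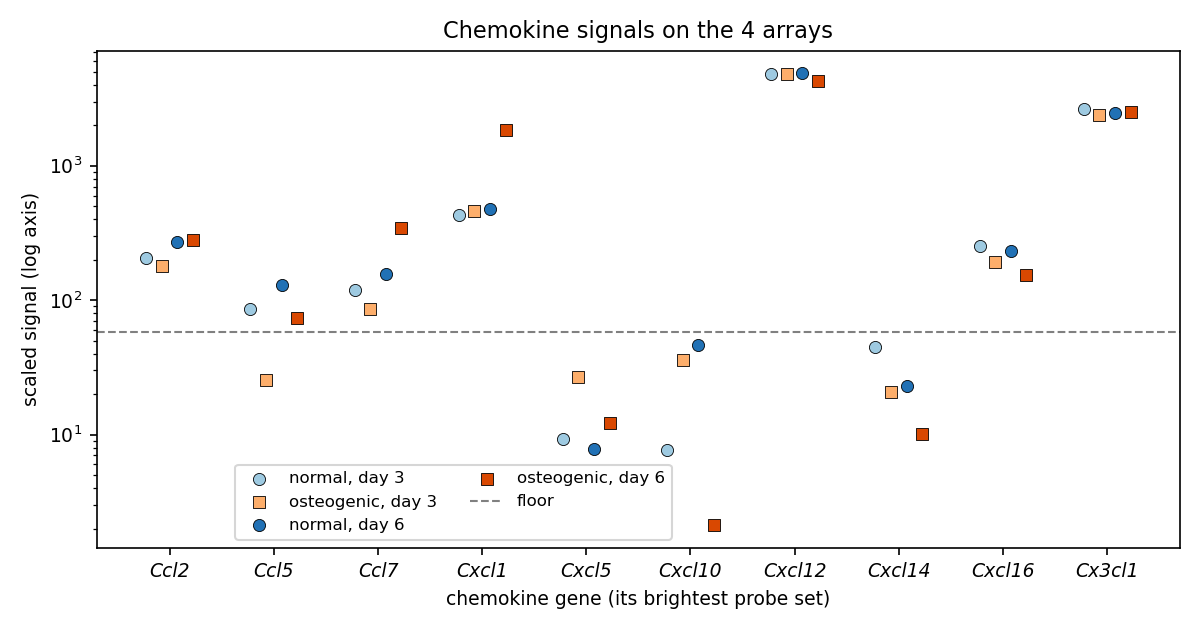
Scaled signal on a log axis for the probe set with the highest mean of each of the 10 chemokine genes, with 1 point per array and the floor of 57.8 as a dashed line. Cxcl1 and Ccl7 are highest on the osteogenic day 6 array, and the points of Cxcl5, Cxcl10 and Cxcl14 all lie below the floor; heights of different genes are not comparable, since each probe set binds with its own strength.

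The promoters of 3 members are shown because Cxcl1 had the largest medium difference, Cxcl10 is an interferon target with no signal above the floor, and the brightest Cxcl12 probe set differed little between arrays. Each sequence is the 250 bases before the gene's start in RefSeq (GRCm38.p6), where 5 of the 10 members were matched. They lie at chr5:90890995-90891244 on the plus strand for Cxcl1, chr5:92348890-92349139 on the minus strand for Cxcl10 and chr6:117168285-117168534 on the plus strand for Cxcl12, written 5′ to 3′ in the sense of the gene. Capitals mark matches on either strand to an NF-kB motif (GGGNNNTTCC), an interferon-stimulated response element or ISRE (GAAANNGAAA), a GC box (GGGCGG) or an AP-1 motif (TGANTCA).
Cxcl1: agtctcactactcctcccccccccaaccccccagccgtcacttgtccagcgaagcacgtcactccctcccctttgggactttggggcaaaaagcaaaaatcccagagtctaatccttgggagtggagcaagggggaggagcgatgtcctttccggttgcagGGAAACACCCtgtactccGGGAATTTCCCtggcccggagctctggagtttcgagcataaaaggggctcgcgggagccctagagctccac
Cxcl10: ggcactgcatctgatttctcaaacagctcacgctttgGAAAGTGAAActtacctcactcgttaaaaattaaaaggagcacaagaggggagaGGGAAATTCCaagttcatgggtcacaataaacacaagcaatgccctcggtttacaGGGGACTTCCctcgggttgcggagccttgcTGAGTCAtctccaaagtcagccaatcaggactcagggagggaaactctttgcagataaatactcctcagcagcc
Cxcl12: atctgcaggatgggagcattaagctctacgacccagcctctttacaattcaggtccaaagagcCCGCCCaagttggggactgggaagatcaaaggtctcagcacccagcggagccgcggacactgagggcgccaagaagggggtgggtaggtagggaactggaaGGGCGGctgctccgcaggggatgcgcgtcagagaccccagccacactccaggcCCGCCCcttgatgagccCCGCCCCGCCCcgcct

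The Cxcl1 window held 3 NF-kB matches and none of the other motifs. One lay 89 to 80 bases before the start on the opposite strand, and the other pair lay at 71 to 62 on the gene's strand and at 70 to 61 on the opposite strand, so that they share most of their letters. The Cxcl10 window held 2 NF-kB matches, at 159 to 150 and 104 to 95 bases before the start, an ISRE at 213 to 204 and an AP-1 match at 74 to 68. In the Cxcl12 window there were 5 GC boxes and no match to the inflammatory motifs, with 64.4% G and C against a median of 52.4% over all promoters. The last pair of GC boxes, at 16 to 11 and 11 to 6, shares 1 base. Of 32851 RefSeq promoters of this length, 4.65% held the NF-kB motif, 2.98% the ISRE, 32.7% a GC box and 6.75% the AP-1 motif. A match is a run of letters and does not show binding. Of the matched members not shown, Cxcl14 held 1 ISRE match and Cx3cl1 held 1 GC box.

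Among the neutrophil-attracting members, Cxcl1 carried the largest difference and its probe sets diverged. Probe set 1441855_x_at had scaled signals of 426.5 in normal and 458.6 in osteogenic medium at day 3, and 472.6 and 1846 at day 6. Only the osteogenic day 6 array was high, and the other arrays lay within a narrow band. The medium difference in log2 was 0.10 at day 3 and 1.97 at day 6, and between days in osteogenic medium the signal rose 4.03-fold. Probe set 1457644_s_at read 146.6, 187.6, 144.5 and 171.3 in the same order of arrays, so its day 6 difference was 0.25 and its osteogenic array of day 6 was not the highest. The third probe set, 1419209_at, was below the floor on all 4 arrays, at 3.32 to 37.9. On Affymetrix arrays the suffix _x marks probe sets in which some probes match other sequences too, _s those shared by several transcripts, and plain _at those meant for 1 transcript. The gap between the 2 brighter Cxcl1 probe sets was 1.72 in log2 at day 6, a gap that 16 of 4967 genes (0.322%) reached or passed. For the day difference in osteogenic medium the gap was 2.14, which 2 of 4956 genes (0.0404%) reached or passed. Without probe sets of the suffixes _x_at and _s_at, Cxcl1 had no level above the floor, and with the mean of its probe sets its day 6 difference was 0.74, below 2-fold.

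Cxcl5, which encodes the other ELR chemokine among the members, read 9.25, 26.7, 7.79 and 12.3 on probe set 1419728_at. All of these were below the floor, so the arrays gave it no order. In the RefSeq gene order Cxcl1 lies between Cxcl15 and Cxcl2, and Cxcl5 beside Ppbp, the gene of another neutrophil-attracting chemokine. Cxcl2, Cxcl15 and Ppbp were below the floor on all 4 arrays as well, with highest signals of 11.7, 26.9 and 43.6.

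**Figure D2:**
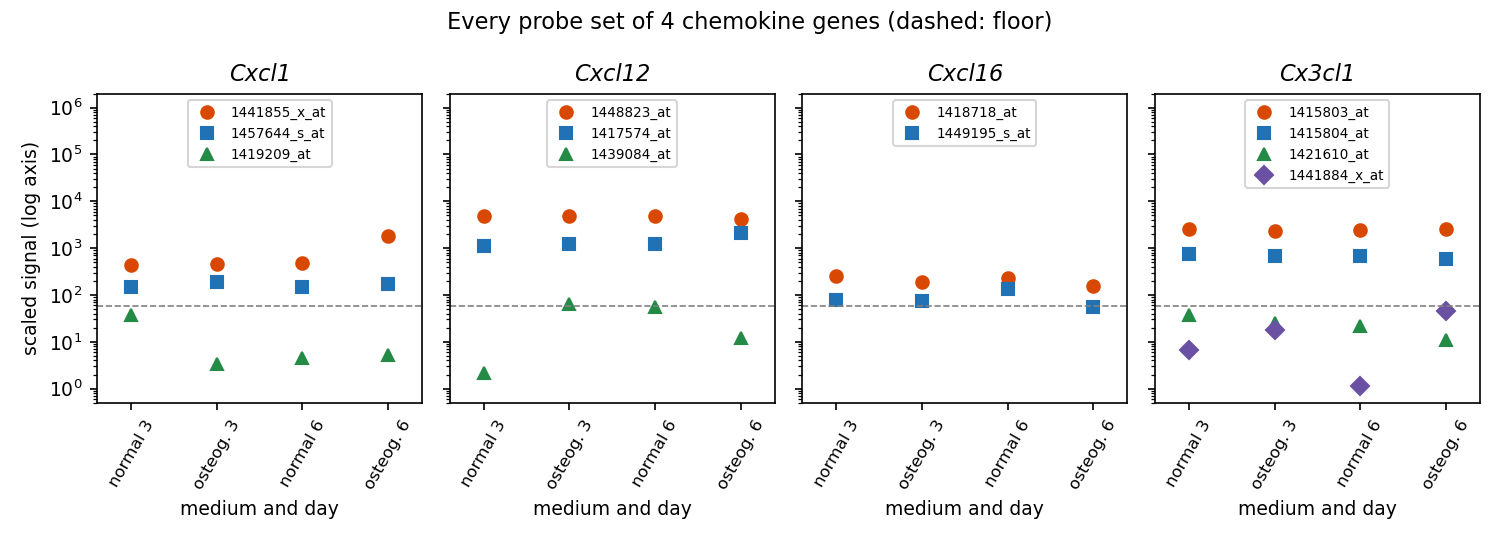
Scaled signal on a log axis of every probe set of Cxcl1, Cxcl12, Cxcl16 and Cx3cl1 on the 4 arrays, with 1 marker shape per probe set and the floor of 57.8 as a dashed line. For Cxcl1 the set 1441855_x_at rises to 1846 on the osteogenic day 6 array while 1457644_s_at stays at 171.3, and for Cxcl12 the set 1417574_at rises to 2054 there while 1448823_at falls to 4253.

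The monocyte-attracting members Ccl2 and Ccl7 are neighbours in the genome, and Ccl7 differed between media where Ccl2 did not by 2-fold. Ccl7 on probe set 1421228_at had scaled signals of 118.0 in normal and 85.2 in osteogenic medium at day 3, then 157.0 and 345.9 at day 6. The osteogenic array was the lower one of its pair at day 3 and the higher one at day 6. In log2 the medium difference was −0.47 at day 3 and 1.14 at day 6, a change of 1.61 between days. In osteogenic medium the signal was 4.06-fold higher at day 6 than at day 3, against a log2 difference of 0.41 in normal medium. These comparisons share the osteogenic day 6 array and are not separate evidence. The day 6 difference of Ccl7 was 0.16 with a floor at the 70th percentile, and 0.9998 in log2, just short of 2-fold, with a pseudocount of 32 in place of the floor. With a floor at the 60th percentile, its log2 rise between days in osteogenic medium was 1.53 and its change of the medium difference 1.14. Both were 0.16 with a floor at the 70th percentile.

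Ccl2, which encodes monocyte chemoattractant protein, read 205.7 and 178.2 at day 3 and 271.2 and 280.1 at day 6 on probe set 1420380_at. Both arrays of day 6 were above both of day 3, by 1.32-fold in normal and 1.57-fold in osteogenic medium. Between media its log2 difference was −0.21 at day 3 and 0.05 at day 6, both within the probe-set error. That error, taken from how far 2 probe sets of 1 gene disagree, was 0.300 at day 3 and 0.289 at day 6 on the log2 scale, and it covers probe error only, not the spread between cultures. The next gene in the row, Ccl11, an eosinophil attractant, was below the floor on all 4 arrays.

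Ccl5 and Cxcl10 encode ligands that draw T cells. Ccl5 on probe set 1418126_at had scaled signals of 86.6 and 25.5 at day 3 and 130.3 and 74.0 at day 6, normal medium first. The osteogenic array was the lower one on both days, and that of day 3 was below the floor. The signal was at least 1.50-fold lower in osteogenic medium at day 3 and 1.76-fold lower at day 6. With the floor at the 40th percentile the day 3 log2 difference became −1.28, past 2-fold, while a floor at the 60th percentile made that of day 6 −0.12. Cxcl10 on probe set 1418930_at read 7.63, 35.9, 46.1 and 2.12, all below the floor, so no direction was read from it.

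Cxcl12 gave signals far above the floor with probe sets that differed at day 6. Probe set 1448823_at had scaled signals of 4805 and 4808 at day 3 and 4863 and 4253 at day 6, normal medium first, with log2 differences of 0.00 and −0.19. Probe set 1417574_at read 1113, 1205, 1199 and 2054, so that the osteogenic day 6 array was 1.71-fold above normal medium. The sets thus lay on opposite sides of zero at day 6, with a gap of 0.97 in log2 that 3.2% of genes reached or passed. The remaining set, 1439084_at, was above the floor only on the osteogenic day 3 array, at 65.1. Cxcl14, which encodes another constitutively made CXC chemokine, was below the floor on all 4 arrays on both of its probe sets, at 44.7 or less on the brighter one.

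The transmembrane members Cxcl16 and Cx3cl1 carry their chemokine domain on a mucin-like stalk that proteases can cut. Cxcl16, the ligand of Cxcr6, read 253.7 and 191.9 at day 3 and 233.5 and 154.2 at day 6 on probe set 1418718_at. Both osteogenic arrays were below both normal arrays, by 1.32-fold at day 3 and 1.51-fold at day 6. Its other set, 1449195_s_at, read 77.2, 75.5, 131.0 and 55.0, which made osteogenic medium at least 2.27-fold lower at day 6 but differ by −0.03 in log2 at day 3. Cx3cl1, or fractalkine, read 2624, 2366, 2456 and 2519 on probe set 1415803_at, a spread over the 4 arrays of less than the probe-set error. Its second set, 1415804_at, read 742.2, 676.7, 692.3 and 581.6, with log2 differences of −0.13 and −0.25, and its other 2 sets were below the floor. Ccl22 and Ccl17, the genes on either side of Cx3cl1, were below the floor on at least 3 of the 4 arrays.

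**Figure D3:**
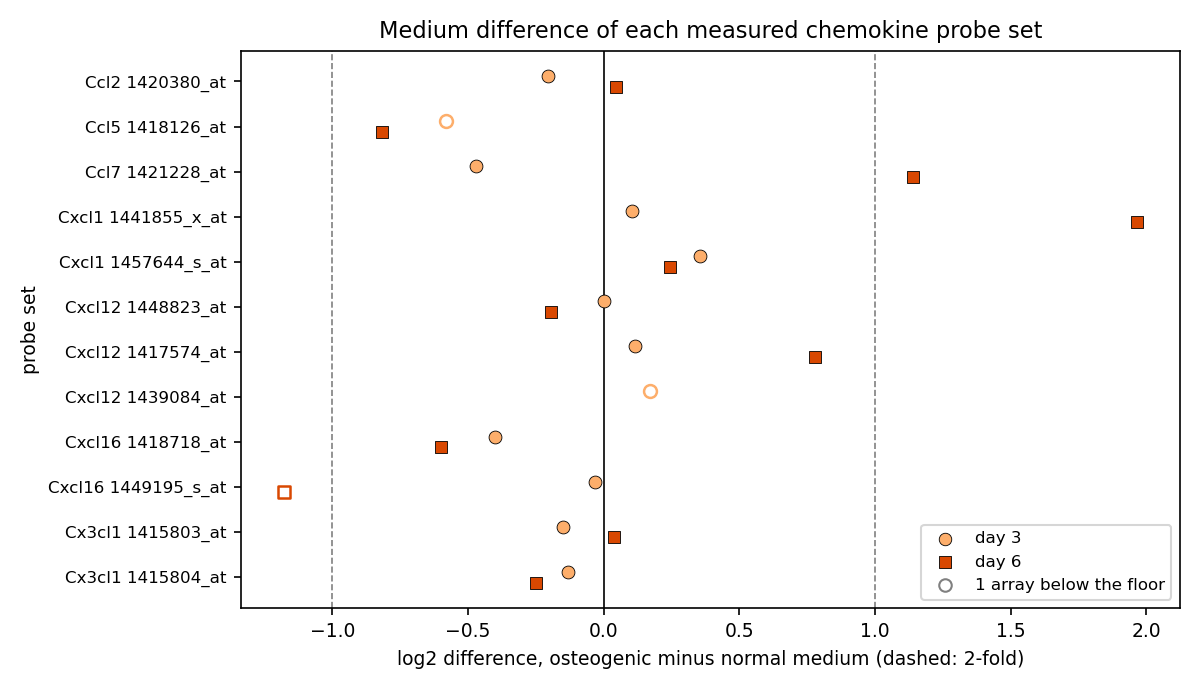
Log2 difference between osteogenic and normal medium for each chemokine probe set above the floor on at least 1 array of the day, with circles for day 3, squares for day 6, open symbols where 1 array was below the floor so that the value is a bound, and dashed lines at 2-fold. At day 6 only Cxcl1 1441855_x_at at 1.97 and Ccl7 at 1.14 pass the upper line, and Cxcl16 1449195_s_at passes the lower one.

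Counted by gene, with each gene read from its probe set of highest mean, 0 of the 7 measured members passed 2-fold between media at day 3, against 3.57% of 11861 genes measured on the array. Ccl5 entered this count only as a bound, and it was past 2-fold lower with a 40th percentile floor, with none and with the pseudocount. At day 6, 2 passed it upward and 0 downward, against 6.96% of 11901 genes in either direction. The member medians were −0.21 at day 3 and 0.036 at day 6, beside 0.0092 and 0.013 over all measured genes. From day 3 to day 6, 0 members passed 2-fold in normal medium, where 1.48% of all genes did, and Ccl7 and Cxcl1 did in osteogenic medium, where 6.32% did. The same 2 genes passed it in the change of the medium difference between days, which 7.42% of all genes did. All of these counts for Ccl7 and Cxcl1 rest on the single osteogenic day 6 array, and leaving out the probe sets with the suffixes _x_at and _s_at left Ccl7 as the only member past 2-fold at day 6.

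Both days also entered a limma model with 1 term for medium and 1 for day, which leaves 1 residual degree of freedom. That residual is the change of the medium difference between days, which the model counts as error. Its SEs and p-values therefore do not measure a spread between replicates. The model called 0% of 11439 genes for medium and 0% for day at an adjusted p of 0.05 (Benjamini-Hochberg). At an unadjusted p under 0.05 there were 1673 genes for medium and 874 for day. With a mean-variance trend limma called 27 genes for medium and 4 for day, 0 of them members. Of the members, Ccl5 had a log2 medium effect of −0.70 (SE 0.18, limma adjusted p = 0.263), lower in osteogenic medium at both days. Its osteogenic day 3 array entered at the floor, so this effect is a bound and its SE depends on the floor. The effect of Cxcl16 was −0.50 (SE 0.18, limma adjusted p = 0.326), in the same direction at both days. Cxcl1 had the largest effect, 1.04 (SE 0.46, limma adjusted p = 0.394), of which nearly all came from day 6. For Ccl7 it was 0.33 (SE 0.41, limma adjusted p = 0.747), with opposite signs at the 2 days. No member passed the threshold for medium or for day in this fit. A test that misses its threshold does not show that the media act alike.

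The cultures carried osteoblast genes, and markers of leukocytes, endothelial cells and adipocytes were mostly below the floor. Markers of marrow reticular stroma went the other way, with 5 of 6 above the floor on all 4 arrays. Of 8 osteoblast markers, 5 had a probe set with 1 symbol, which Runx2, Bglap and Spp1 lacked. Alpl, Ibsp and Pth1r were past 2-fold higher in osteogenic medium on both days. Sp7 differed by 0.69 at day 3 and 0.38 at day 6 in log2, and Col1a1 by −0.21 and 0.03. Of 9 leukocyte markers, Ptprc, Cd68, Adgre1, Itgam, Tyrobp and Cd3e were below the floor on all 4 arrays, while Csf1r, Lyz2 and Cd14 were above it on all 4, and the summed leukocyte signal ranged from 740.5 to 1007. Lyz2 was lower in osteogenic medium at day 6 by 1.24 on the log2 scale. Of 6 endothelial markers 5, and of 5 adipocyte markers all 5, were below the floor on every array. In cultures measured in bulk, fewer cells making a chemokine and less RNA per cell cannot be told apart. The 18S ribosomal control probe set of the 5′ end read 746 on the osteogenic day 6 array against 5202 to 9162 on the others, while the 3′ to 5′ ratio of Gapdh stayed between 0.756 and 0.769. The part of that array's difference in the Cxcl1 and Ccl7 results was not tested.

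Further chemokine ligands gave few signals. Of 25 with a probe set, 14 were below the floor on all 4 arrays, among them the neutrophil attractants Cxcl2 and Cxcl3 and the interferon-induced Cxcl9 and Cxcl11. Over all genes, 12503 of 18193 were above the floor on at least 1 array. At day 3 Cxcl17, a mucosal chemokine, was lower, since it read 141 in normal medium at day 3 and was below the floor in osteogenic medium. At day 6 none of the 10 measured passed 2-fold, with a median log2 difference of −0.015. Of 21 chemokine receptor genes 13 were below the floor on all arrays, and of 6 measured on each day 0 passed 2-fold between media. Over all measured genes, 3.57% passed 2-fold between media at day 3 and 6.96% at day 6. At day 6 Ccr10, Cxcr6 and Ackr2 were measured only because the osteogenic array was above the floor, so the list's median is not read. Ackr3, a scavenger that also binds Cxcl12, had scaled signals of 880.8, 867.5, 771.9 and 1384 on 1417625_s_at and was 1.79-fold higher in osteogenic medium at day 6. Ackr4, a scavenger of homeostatic CC chemokines, read 648.8, 643.9, 1302 and 693.4 on 1426139_a_at, which was 1.88-fold lower at day 6. Its other sets went the opposite way there, by 1.02 on 1437668_at and 0.71 on 1437669_x_at in log2. Cxcr4, the signalling receptor of Cxcl12, was above the floor only on the osteogenic day 3 array, at 76.7.

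Among proteases that cut chemokines and the inhibitors of these enzymes, 8 of 9 were measured, with 0 past 2-fold at day 3. At day 6, 2 were higher and 1 lower. Over all measured genes, 3.57% passed 2-fold in either direction at day 3 and 6.96% at day 6. Timp1, an inhibitor of metalloproteinases, read 5896 and 10688 at day 3 and 6041 and 19236 at day 6, with a log2 medium difference of 1.67 at day 6. Timp3, which inhibits the sheddases Adam10 and Adam17 as well, was 1.27 higher in log2 at day 6 and differed by 0.034 at day 3. Mmp9, which trims several CXC chemokines, read 267, 314.7, 415.3 and 198.3, lower at day 6 by 1.07 on the log2 scale. Adam10, named after its values were seen because it sheds both transmembrane members, differed by −0.01 and −0.41 in log2. Its other measured sets, 1450104_at and 1450105_at, gave −0.20 and −0.13 at day 3 and −0.73 and −0.75 at day 6. Dpp4, which cuts the N terminus of Cxcl12, was below the floor on all 4 arrays.

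Over 16 measured genes, inflammatory cytokines and their receptors had a median log2 medium difference of 0.018 at day 3 and 0.50 at day 6. At day 6 Il6 and Il1rn were measured only because the osteogenic array was above the floor, so that median is not read. At day 3 the double-stranded RNA receptor gene Tlr3 was the only one past 2-fold, where 3.57% of all measured genes were. It was lower by at least 1.19 in log2 on 1422782_s_at, whose osteogenic array was below the floor. The other Tlr3 set, 1422781_at, was below the floor on both day 3 arrays. At day 6, 5 were higher and 0 lower, against 6.96% of all measured genes in either direction. Il6 is among the 5 and entered only through the osteogenic array, so it could only come out higher. Il1rn entered the measured genes in the same way. Lif, a cytokine of the interleukin 6 family, read 121, 198, 138.5 and 434, and Osmr, the receptor subunit for oncostatin M, read 986, 1072, 770 and 2394. Il6 was above the floor only on the osteogenic day 6 array, at 133.4, and Csf1, the growth factor of macrophages and osteoclast precursors, read 5434, 3879, 3719 and 7949. The tumour necrosis factor receptor gene Tnfrsf1b, the fifth, was named after its values were seen. Lif, Osmr, Il6 and Csf1 were named for being past 2-fold higher in osteogenic medium at day 6. That this array was their highest follows largely from that choice. Of the classical inducers of Cxcl1 and Ccl7, Tnf and Il1a were below the floor on all 4 arrays, and Il1b was above it on both day 3 arrays, at 67.0 and 65.5, and below it on both day 6 arrays.

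Of NF-kB subunits, kinases and inhibitors, 12 genes were measured, and 1 was higher and 0 lower at each day, with medians of 0.21 and 0.16 in log2. Over all measured genes, 3.57% passed 2-fold at day 3 and 6.96% at day 6, so a count of 1 is not read as a result about the list. The gene counted was Nfkbiz, which encodes a nuclear cofactor of NF-kB, with scaled signals of 62.6, 138.7, 216.9 and 510.6. Its log2 medium difference was 1.15 at day 3 and 1.24 at day 6, while its other probe sets gave 0.09 to 0.79 and 0.80 to 0.93. Of the other NF-kB target genes, Birc3, an inhibitor of apoptosis, was lower at day 3 by 1.30 on the log2 scale. At day 6, 2 were higher and 0 lower, where 6.96% of all measured genes passed 2-fold in either direction. Ptgs2, the inducible cyclooxygenase, read 249, 433, 326.5 and 2052, a log2 difference of 2.65 at day 6 that was 1.61 on its other probe set. Saa3, an acute-phase protein gene, was above the floor on both osteogenic arrays and below it on both normal ones. It read 126.8 on the osteogenic day 6 array. Saa3 was thus measured only through the osteogenic arrays, and its difference is a bound. Interferon receptors and their STAT and IRF factors had 0 of 10 measured genes past 2-fold between media on either day, with medians of −0.12 and −0.00068. AU-rich mRNA binding proteins, which shorten or lengthen the life of such messages, also had 0 past 2-fold on either day. Beside these counts, 3.57% of all measured genes passed 2-fold between media at day 3 and 6.96% at day 6.

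**Figure D4:**
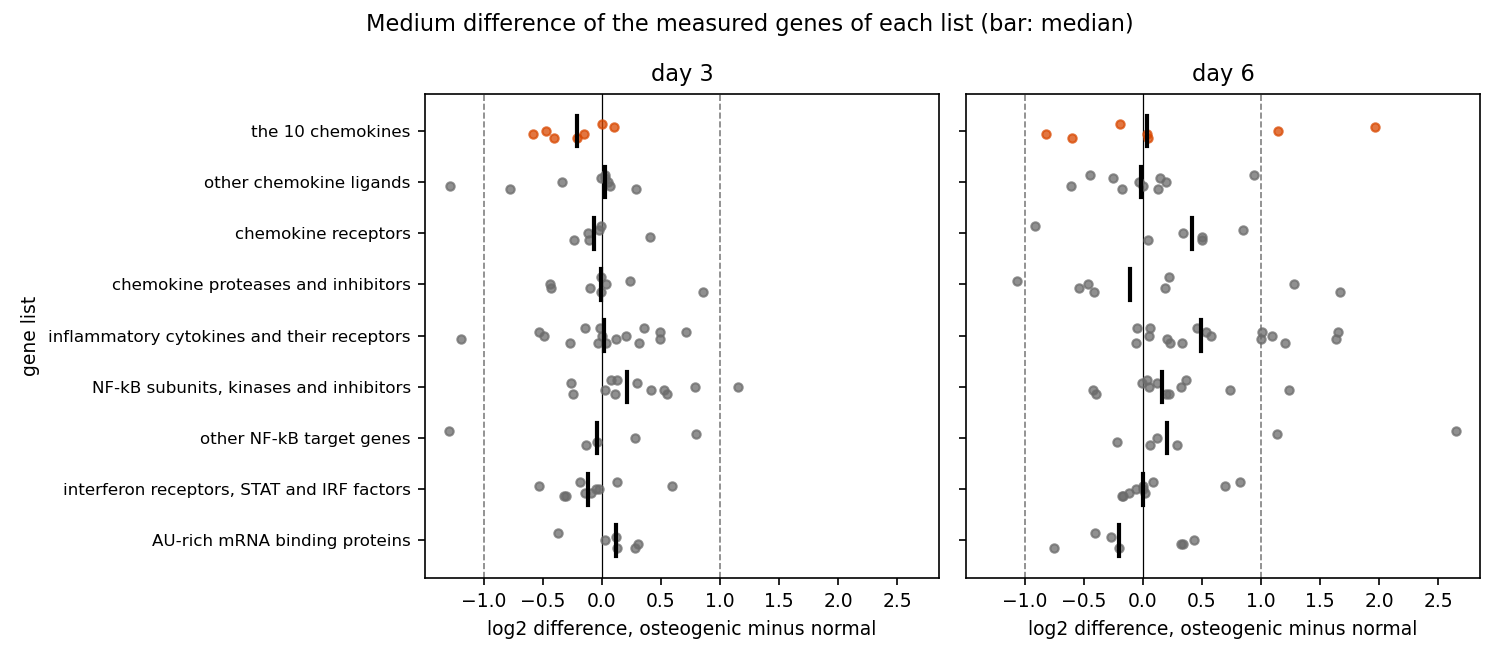
Log2 difference between osteogenic and normal medium of each measured gene of the 10 chemokines and 8 further gene lists at day 3 and day 6, with 1 point per gene, a black bar for the median of each list and dashed lines at 2-fold. At day 6, 5 inflammatory cytokine and receptor genes and 2 of the other NF-kB target genes lie past the upper line; a gene measured on 1 array of a pair lies at its bound, so medians of lists with dim genes lean towards the array where these are high.

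Ccl7 and Cxcl1 varied by at least 1 in log2 over 4 arrays above the floor, and the genes with the nearest centred 4-array profile were found for each. The measure is the Euclidean distance of log2 values, each gene centred on its own mean, over 4 arrays. Ccl5 reached that range only with its array below the floor set to the floor, so its nearest genes are not given. Nearest to Ccl7 was Dnajb9, an endoplasmic reticulum co-chaperone gene, at 0.237, with scaled signals of 1709, 1402, 2273 and 4516, then Hivep2 and Nupr1. Nearest to Cxcl1 was Gdpd1 at 0.0872, with 69.1, 75.3, 76.8 and 322, then Dhrs3 and Igf2. The Cxcl1 profile is that of 1441855_x_at alone, and 1457644_s_at was not highest on the osteogenic day 6 array. The profiles of Ccl7 and Cxcl1 were each set against 9953 genes, and how near a gene lies by chance over 4 arrays was not tested.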

How the data were processed

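Total RNA of 4 samples was turned into biotin cRNA by 3′ in vitro transcription and read on Affymetrix whole-genome mouse arrays, per the labels' protocols. The deposited intensity values are linear, 1 for each probe set on each array. Its mean without the lowest and highest 2% of probe sets was 500 on each array, so the authors' values were already scaled, and a difference in total RNA per cell is not visible. The sources used here name no summarization software or genome build and give no detection calls. The number of arrays limits the precision.

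From these values, each array was shifted so that the 75th percentile, taken without the 64 controls, was the same on all. Signals under the pooled 50th percentile were set to that value, and log2 was taken. Genes were named from the platform annotation, with 34945 probe sets of 1 symbol used and 932 of several and 9160 of none left out. A gene was read from its brightest probe set by mean, and was measured if above the floor on at least 1 array compared. A gene under the floor on 1 side has a bound, written "at least". Higher and lower mean 2-fold, with no test, since each group has 1 array and nothing says whether the cultures were separate. Probe-set error was the SD, over genes, of the gap between the 2 brightest measured probe sets, divided by the square root of 2. The model of medium and day used limma 3.58.1 in R 4.3.3 with empirical Bayes and Benjamini-Hochberg adjustment over 11439 genes above the floor on at least 2 arrays. Steps were tested on simulated data.

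The members and gene lists were chosen with earlier results of these data known. Named genes were all members, the up to 4 genes per list and day furthest past 2-fold between media, receptor genes above the floor on all arrays, and the 3 genes nearest in profile to each member that ranged by at least 1 in log2. All other genes with values, such as Cxcr4, Dpp4, Tnf, Il1a, Il1b, Adam10 and the markers, and the examples of ligands below the floor, were named after their values were seen. Alternatives were other scalings, floors at the 40th, 60th and 70th percentile or none, a pseudocount of 32, the mean of probe sets, a mean-variance trend in limma, and, chosen after seeing the data, leaving out probe sets with the suffixes _x_at and _s_at. Promoter windows came from RefSeq (GRCm38.p6).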

Additional observations from a re-analysis of the deposited data

Results flagged for a closer look

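Ccl7 and the inflammatory genes Csf1 and Tnfrsf1b had medium differences of opposite sign on the 2 days. The log2 difference of Ccl7 was −0.471 at day 3 and 1.14 at day 6, that of Csf1 was −0.486 and 1.1, and that of Tnfrsf1b was −0.534 and 1.01. The other measured probe set of Tnfrsf1b was above zero on both days, at 0.24 and 0.51. Each day is 1 pair of arrays, so this change between days was not tested.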

How the results depend on the processing

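No difference of a member that was past 2-fold reversed, and of 325 alternative values for 35 member differences 300 lay within the probe-set error of the reported one. At day 6, Ccl7 was past 2-fold in 8 of 10 alternatives, from 0.16 to 1.14 in log2. Cxcl1 was past it in 8 of the 9 that gave it a value, from 0.74 to 1.98. Those 8 all read Cxcl1 from its brightest probe set, an _x_at set, while its other measured set differed by only 0.25. Leaving out the _x_at and _s_at sets left Cxcl1 with no level above the floor, so that alternative is not among the 9. Ccl5 at day 3 was −1.76 without a floor, −1.28 at a 40th percentile floor and −1.04 with the pseudocount. The count of all genes past 2-fold depended on the floor. At day 3 it was 752, 227 and 111 with floors at the 40th, 60th and 70th percentile, 4478 with none and 257 with the mean of probe sets. At day 6 it was 380 at the 70th percentile and 4782 with no floor. Between days in normal medium it was 436, 59 and 29 at the 3 floors, 4096 with none, 345 with the pseudocount and 97 with the mean of probe sets. Between days in osteogenic medium it was 327 at the 70th percentile and 4723 with none. For the change of the medium difference it was 1508, 575 and 309 at the 3 floors, 5951 with none and 585 with the mean of probe sets. A higher floor tests fewer genes, and with no floor dim probe sets enter. The limma fit with a mean-variance trend called 27 genes for medium and 4 for day, none of them members, and a floor at the 70th percentile gave 1 for day. Over the fits, the adjusted p of Cxcl1 for medium ranged from 0.28 to 0.79 and that of Ccl7 from 0.412 to 0.906. The limma model compares the media within each day, and the labels give no replicate numbers for any further pairing. Signals near the floor limit Ccl5, Ccl7 on all but the osteogenic day 6 array and, on the normal arrays, Il6 and Saa3.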

Other observations

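Genes that mark Cxcl12-rich reticular cells of the marrow, named here after their values were seen, moved in both directions in osteogenic medium at day 6. Ebf1, a transcription factor gene of these cells, was higher by 1.32 in log2. Pdgfra, a growth factor receptor gene of stromal progenitors, was lower by 1.36. Their other measured probe sets gave 0.86 to 1.27 for Ebf1 and −1.15 to −0.32 for Pdgfra. Lepr, Foxc1 and Kitl of the same list differed by −0.68, −0.16 and 0.07 in log2. Ebf3, a factor related to Ebf1, was below the floor on all 4 arrays, while the other 5 genes of the list were above it on all 4.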
